A study of Homo sapiens with 6 samples.

Results

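The tumour necrosis factor (TNF) ligands and TNF receptors were examined in A549 cells with reduced METTL3. Genes were taken by symbol: TNF, LTA, LTB, LTBR, CD40, CD70, CD27, NGFR and every numbered TNFSF or TNFRSF symbol, leaving out TNFRSF11B, TNFSF11 and TNFRSF10B. This gave 37 of the 57781 rows in the count table, namely 14 ligands and 23 receptors, of which 19 had enough counts to be tested. A549 is an established human lung adenocarcinoma line, kept in DMEM with 10% serum. There were 3 libraries of cells with the empty vector, given the genotype WT in the labels, and 3 of cells with short hairpin RNA against METTL3 (shMETTL3), the catalytic subunit of the enzyme that writes N6-methyladenosine (m6A) on mRNA. The count columns number the knockdown libraries sh1 to sh3, and whether these are different hairpins is not given in the sources used here. The study's methods say in general that experiments were repeated independently, without naming the sequenced libraries. Where these are not separate cultures, the p-values measure only the spread between these libraries.

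Ligands of this superfamily are mostly membrane proteins that act as trimers, on the cell surface or after being shed. Death domain receptors bind adaptors such as TRADD and FADD and can engage caspase-8, other receptors bind TRAF proteins and activate NF-kB, and decoy receptors bind a ligand without passing on a full signal. Several ligands and receptors are known mainly from lymphocytes, and others, such as TNFRSF1A, are found in most cell types.

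METTL3 counts were 887, 846 and 808 with the vector and 364, 399 and 307 with shMETTL3. Its level fell from 49.9 ± 0.676 to 19.4 ± 0.525 CPM (library-scaled counts, by edgeR's TMM method, SD, n = 3), with an edgeR adjusted p = 4.57e-16, and the libraries did not overlap (exact permutation test, two-sided, p = 0.1, as small as 3 against 3 can give). Library totals lay between 14931426 and 19108928 counts, so 3 counts, taken as the floor, stood at 0.15 to 0.189 CPM on this scale. Changes were widespread: 66.6% of the 15125 genes tested were called at an adjusted p under 0.05, 33.7% higher and 32.9% lower. Every edgeR adjusted p given here is from its quasi-likelihood test, adjusted by Benjamini-Hochberg over all genes tested. Of the calls, 50.6% were higher, and with scaling by library size alone, which shifted the median log2 fold change by 0.17, 65.8% were. Of the epithelial markers, 5 of 6 were lower, and their summed level was 9970 to 10600 CPM in vector and 5150 to 5600 CPM in shMETTL3 libraries. KRT7 was the marker that rose. The 10 leukocyte markers summed to 1.5 to 2.69 CPM in vector and 8.08 to 9.83 CPM in shMETTL3 libraries, with CD3E, CD2 and MS4A1 at 0 in every library, and CD14 rose from 6, 5 and 16 to 125, 117 and 105 counts. CD14 alone had a mean of 6.31 CPM in shMETTL3 libraries. ITGAM rose too (log2 fold change 1.45), CSF1R was not called (-0.46) and PTPRC had at most 1 count in any library. The 5 fibroblast markers summed to 4.12 to 7.23 and 10.9 to 11.9 CPM, of which COL1A1 held 5.64 and 10.5 CPM on average. COL1A2 had at most 3 counts in any library. The 2 endothelial markers summed to 0 to 0.123 and 1.4 to 1.89 CPM, all from CDH5, with VWF at 0. More cells of a type and more RNA per cell cannot be told apart in such bulk samples, and the part of these markers in the results was not tested.

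Among the 19 tested superfamily genes, 13 were higher in shMETTL3 libraries, 1 was lower and 5 were not called, so that 73.7% were called against 66.6% of all genes, 68.4% higher against 33.7%, and 5.26% lower against 32.9%. The groups of libraries did not overlap for 14 of them, against 69.4% of all genes, and 8 rose by a log2 fold change of at least 1, against 10.2% of all genes. Their median log2 fold change was 0.79, with a range of -0.35 to 5.18, where the median of all genes was 0.00. TNFRSF9, CD70 and TNFRSF10C passed the filter on low counts only through the shMETTL3 libraries, which favours a difference in that direction. Of the 16 that passed in both groups, 11 were higher, 1 was lower and the median was 0.68.

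**Figure D1:**
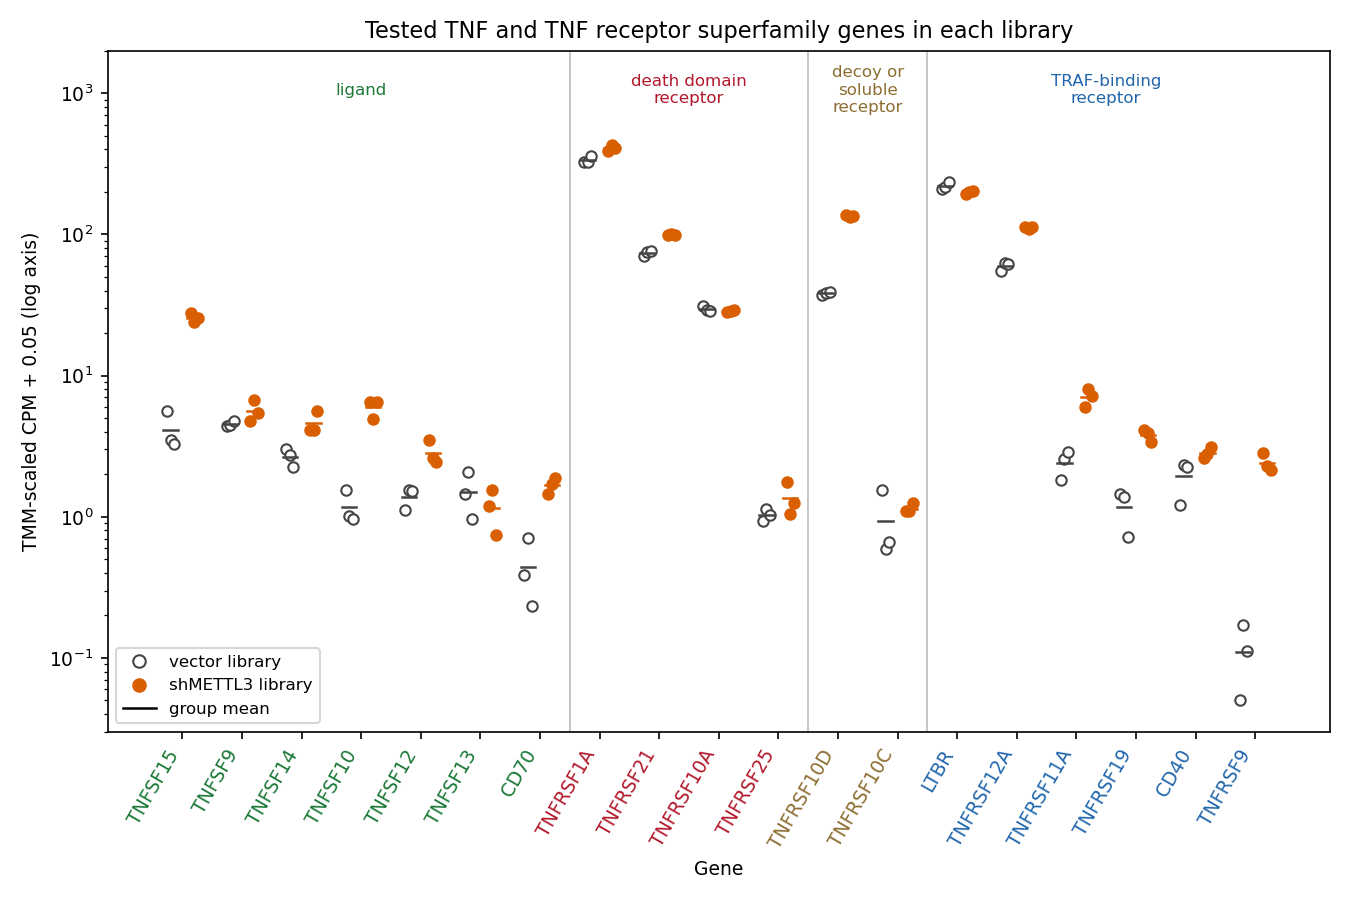
Level of each tested superfamily gene in each library, as TMM-scaled CPM plus 0.05 on a log axis, with the 19 genes on the horizontal axis in order of role and mean level. Open points are the 3 vector libraries, filled points the 3 shMETTL3 libraries and short lines the group means. The filled points lie above all open points for 13 genes, TNFSF15, TNFRSF10D and TNFRSF9 among them.

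Promoters were taken for genes that rose by a log2 fold change of at least 2 and had a RefSeq entry, namely TNFRSF9, TNFSF15 and TNFSF10. The entry of TNFSF15 starts 13.5 kb downstream of its canonical start, inside the gene, and is not shown. The other 2 are the 250 bases before the RefSeq start in GRCh38.p14, minus strand, at chr1:7940840-7941089 for TNFRSF9 and chr3:172523431-172523680 for TNFSF10, with matches to the NF-kB motif and to the AP-1 motif TGANTCA, where N was C or G, in capitals.
TNFRSF9: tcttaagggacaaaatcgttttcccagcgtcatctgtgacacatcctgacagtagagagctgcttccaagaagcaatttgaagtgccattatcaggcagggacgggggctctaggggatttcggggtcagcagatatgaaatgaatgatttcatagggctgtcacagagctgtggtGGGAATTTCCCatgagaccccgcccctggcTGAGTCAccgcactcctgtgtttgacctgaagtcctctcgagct
TNFSF10: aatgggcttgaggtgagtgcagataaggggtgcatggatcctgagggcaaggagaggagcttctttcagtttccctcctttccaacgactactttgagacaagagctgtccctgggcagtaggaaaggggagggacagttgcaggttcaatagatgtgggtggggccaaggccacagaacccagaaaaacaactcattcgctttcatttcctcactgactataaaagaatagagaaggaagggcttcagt
Both strands were searched. The TNFRSF9 window held 2 overlapping NF-kB matches and 1 AP-1 match, and the TNFSF10 window held neither motif. Of all 35116 promoters, 5.21% held an NF-kB match and 4.2% an AP-1 match. Of the 12 tested superfamily genes with a promoter entry, 2 held the first (TNFSF14 and TNFRSF9) and 3 the second (TNFSF14, TNFRSF9 and the internal window of TNFSF15). For the other 11 the RefSeq start was the canonical start. A match is a description of the letters and was not tested as a binding site.

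Since METTL3 methylates adenosine in motifs such as GGACT, this motif was also counted in the canonical transcripts of GENCODE for GRCh37. It was present in 17 of the 19 tested genes (89.5%, median 1.02 per kb) and in 91.8% of 12475 tested protein-coding genes (median 0.922 per kb), and CD70 and CD40 held none. Whether any copy is methylated was not measured in these data. The copy nearest the stop codon, in capitals, is shown for 5 genes with a mean of at least 10 CPM, in 21 bases of the transcript strand. TNFRSF10A and TNFRSF10D also had that level and held 4 copies each, and their windows are not shown here.
TNFRSF1A: ggagctgtGGACTtttgtaca
TNFRSF21: accctcctGGACTctgtttat
TNFSF15: tccttgcaGGACTcaccacat
LTBR: cctccacaGGACTctccctac
TNFRSF12A: aagtgcatGGACTgcgcgtct
In GRCh37, the TNFRSF1A window is in the 3′UTR in exon 10 of 10 at chr12:6437960-6437980 (minus strand), and the LTBR window in the 3′UTR in exon 10 of 10 at chr12:6500276-6500296 (plus strand). The windows of TNFRSF21 (exon 6 of 6, chr6:47200525-47200545, minus strand), TNFSF15 (exon 1 of 4, chr9:117568136-117568156, minus strand) and TNFRSF12A (exon 2 of 4, chr16:3071263-3071283, plus strand) are in coding sequence. TNFSF15, TNFRSF12A, TNFRSF21 and TNFRSF1A were higher in shMETTL3 libraries and LTBR was lower.

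Of the 14 ligands, 7 were tested and 5 rose (71.4% called, all higher, against 66.6% of all genes called and 33.7% higher). CD70, 1 of the 5, passed the filter only through the shMETTL3 libraries. The largest rise was that of TNFSF15 (TL1A), the ligand of TNFRSF25, on the minus strand at chr9:117546932-117568319 in GRCh37, which had 100, 58 and 53 counts in vector libraries and 534, 479 and 404 counts in shMETTL3 libraries. No shMETTL3 library came near a vector library, although vector replicate 1 stood above the other two. Its level rose from 4.1 ± 1.28 to 25.7 ± 1.89 CPM (SD, n = 3), a log2 fold change of 2.63 (SE 0.129, edgeR adjusted p = 3.68e-16). TNFSF10 (TRAIL), which can trigger apoptosis through death receptors, had 27, 16 and 15 counts in vector and 124, 98 and 102 counts in shMETTL3 libraries. It rose from 1.13 ± 0.327 to 5.91 ± 0.886 CPM (SD, n = 3), a log2 fold change of 2.37 (SE 0.215, edgeR adjusted p = 1.81e-10).

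CD70, the ligand of CD27, was low, with 6, 11 and 3 counts in vector and 27, 33 and 29 counts in shMETTL3 libraries. The groups did not overlap, and the log2 fold change was 2.02 (SE 0.376, edgeR adjusted p = 2.92e-05). Its receptor CD27 had at most 3 counts in any library. TNFSF12 (TWEAK), the ligand of TNFRSF12A, had 19, 25 and 24 counts in vector and 67, 51 and 38 counts in shMETTL3 libraries, a log2 fold change of 1.07 (SE 0.241, edgeR adjusted p = 0.00031). TNFSF14 (LIGHT), a ligand of LTBR, had 53, 45 and 36 counts and then 79, 82 and 88 counts, a log2 fold change of 0.79 (SE 0.186, edgeR adjusted p = 0.000547). Both genes were higher in every shMETTL3 library than in any vector library.

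The other 2 tested ligands were not called. TNFSF9 (4-1BBL), the ligand of TNFRSF9, had 78, 74 and 77 counts in vector and 91, 134 and 85 counts in shMETTL3 libraries, and the CPM values of the groups overlapped. Its log2 fold change was 0.32 (95% interval 0.00 to 0.64, edgeR adjusted p = 0.0728), and it passed the threshold when libraries were scaled by size alone or without shMETTL3 replicate 1. TNFSF13 (APRIL), with 25, 34 and 15 counts and then 22, 30 and 11 counts, had a log2 fold change of -0.35 (95% interval -1.02 to 0.31, edgeR adjusted p = 0.337). Exons of TNFSF13 share 55.5% of their bases, and those of TNFSF12 12.1%, with the readthrough gene TNFSF12-TNFSF13, which was at 0 in every library, and reads in the shared parts may have been left out of either gene.

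Of the 5 death domain receptors, 4 were tested and 2 rose, both by less than 2-fold (50% called, all higher, against 66.6% of all genes called and 33.7% higher). TNFRSF1A, the main TNF receptor of non-immune cells, was the most abundant superfamily gene per length, at 80.1 CPM per kb of exon in vector libraries. It had 325, 327 and 359 CPM in vector and 391, 431 and 412 CPM in shMETTL3 libraries, a log2 fold change of 0.29 (SE 0.0532, edgeR adjusted p = 3.09e-05). TNFRSF21 (DR6) had 70.8, 74.6 and 75.8 CPM in vector and 98.9, 101 and 98.7 CPM in shMETTL3 libraries, a log2 fold change of 0.43 (SE 0.053, edgeR adjusted p = 4.89e-08). Neither gene's libraries overlapped between groups.

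TNFRSF10A (TRAIL receptor 1) had 31, 29 and 28.5 CPM in vector and 28.2, 28.7 and 28.9 CPM in shMETTL3 libraries. The groups overlapped, and the 95% interval of the log2 fold change of -0.05 ran from -0.19 to 0.10 (edgeR adjusted p = 0.571). TNFRSF25 (DR3), the receptor of TNFSF15, was low, with 16, 18 and 16 counts in vector and 33, 20 and 19 counts in shMETTL3 libraries. Its log2 fold change of 0.41 had a 95% interval of -0.23 to 1.04 (edgeR adjusted p = 0.246). NGFR, the low-affinity neurotrophin receptor, did not pass the filter, with 0, 2 and 0 counts in vector and 9, 12 and 10 counts in shMETTL3 libraries. The ratio of its summed counts was 14.3 (95% exact interval 3.64 to 123, counting error only).

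The decoy receptor TNFRSF10D, which binds TRAIL and has a truncated death domain, lies on the minus strand at chr8:22993101-23021540 in GRCh37. It had 37.3, 38.3 and 39.1 CPM in vector and 137, 133 and 135 CPM in shMETTL3 libraries, with little spread in either group. The rise was 3.53-fold, a log2 fold change of 1.82 (SE 0.0551, edgeR adjusted p = 9.46e-21). TNFRSF10C, a TRAIL decoy anchored to the membrane by a lipid, had 27, 9 and 10 counts in vector and 20, 21 and 19 counts in shMETTL3 libraries. The vector libraries spanned the shMETTL3 values, and its log2 fold change was 0.27 (95% interval -0.46 to 1.01, edgeR adjusted p = 0.51). Without vector replicate 1 it was 0.90 (edgeR adjusted p = 0.0546). Of its 50-base stretches, 32.2% also occur in other annotated genes, so its count is uncertain. In the same libraries TRAIL (TNFSF10) and TNFRSF10D rose, and the log2 fold change of TNFRSF10A had an interval that spanned 0.

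Of the 15 TRAF-binding receptors, 6 were tested, 5 rose and 1 fell (83.3% higher and 16.7% lower, against 33.7% and 32.9% of all genes). TNFRSF9, 1 of the 5, passed the filter only through the shMETTL3 libraries. Also named 4-1BB and known as a costimulatory receptor of T cells, it lies on the minus strand at chr1:7975931-8003225 in GRCh37 and had 0, 2 and 1 counts in vector and 54, 45 and 33 counts in shMETTL3 libraries. The ratio of its summed counts was 40.6 (95% exact interval 13.6 to 199, counting error only), and the fitted log2 fold change, which depends on the prior count at such low vector counts, was 5.18 (edgeR adjusted p = 4.66e-10), with 4.60 without vector replicate 1 and 6.04 without vector replicate 2. CD3E and CD2, markers of T cells, were at 0 in every library, while CD14 and ITGAM of the same leukocyte list rose. The source of the TNFRSF9 counts was not tested. TNFRSF12A (Fn14), the receptor of TWEAK, had 55.3, 62.8 and 61.5 CPM in vector and 113, 109 and 113 CPM in shMETTL3 libraries, a log2 fold change of 0.90 (SE 0.0568, edgeR adjusted p = 1.05e-13). Ligand and receptor of this pair were therefore both higher.

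TNFRSF19 (TROY) had 25, 22 and 11 counts in vector and 79, 78 and 53 counts in shMETTL3 libraries, a log2 fold change of 1.73 (SE 0.236, edgeR adjusted p = 3.17e-07). TNFRSF11A (RANK), known for its part in osteoclast formation, had 32, 42 and 46 counts in vector and 115, 161 and 113 counts in shMETTL3 libraries, a log2 fold change of 1.57 (SE 0.177, edgeR adjusted p = 1.11e-08). Both were low genes whose groups lay well apart. CD40, a costimulatory receptor of B cells and other antigen-presenting cells, had 21, 38 and 36 counts in vector and 49, 55 and 49 counts in shMETTL3 libraries. Its log2 fold change was 0.57 (95% interval 0.09 to 1.05, edgeR adjusted p = 0.0333), and the call was not stable. Without vector replicate 1, the lowest library, the log2 fold change was 0.30 (edgeR adjusted p = 0.255). It was 0.58 (edgeR adjusted p = 0.0597) without shMETTL3 replicate 2 and 0.50 (edgeR adjusted p = 0.0979) without shMETTL3 replicate 3.

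LTBR, the lymphotoxin beta receptor, was the one gene that fell. It had 211, 216 and 237 CPM in vector and 194, 201 and 202 CPM in shMETTL3 libraries, a log2 fold change of -0.15 (SE 0.0524, edgeR adjusted p = 0.0126). The groups did not overlap but the difference was small, and it depended on the scaling, with a log2 fold change of 0.02 (edgeR adjusted p = 0.696) by library size alone. TNFRSF1B, the second TNF receptor, did not pass the filter, with 1, 4 and 0 counts in vector and 9, 5 and 9 counts in shMETTL3 libraries. With no filter on low counts it was called (log2 fold change 2.01, edgeR adjusted p = 0.0255), as was NGFR (log2 fold change 3.61, edgeR adjusted p = 7.79e-05), which made 16 superfamily genes called, 15 higher and 1 lower.

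**Figure D2:**
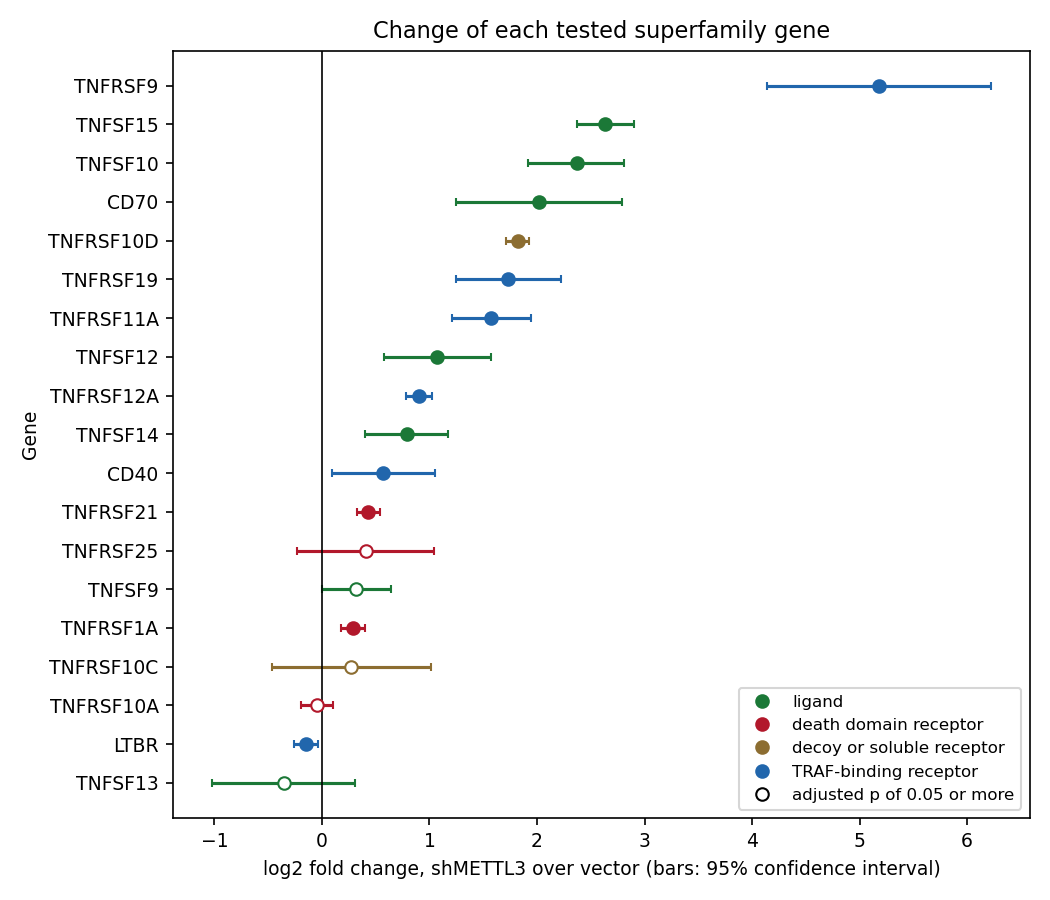
Log2 fold change of shMETTL3 over vector libraries for the 19 tested superfamily genes (horizontal axis), in order of size, with 95% confidence intervals as bars and colours by role. Filled points passed an adjusted p of 0.05 and open points did not. All intervals of the filled points lie to the right of 0 except that of LTBR at -0.15.

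Per kb of exon, the order of the vector libraries after TNFRSF1A was LTBR (35.9 CPM per kb), TNFRSF12A (33.3), TNFRSF21 (20.5), TNFRSF10D (10.8) and TNFRSF10A (10.1), and every ligand but TNFSF9 (2.75) was under 1 CPM per kb. In the shMETTL3 libraries TNFRSF12A (62.2 CPM per kb) and TNFRSF10D (38.2) stood above LTBR (32.4). TNFSF15, at 3.3 CPM per kb, stood beside TNFSF9 at 3.41. The length was that of all annotated exons, 6151 bases for LTBR, whose canonical transcript has 2134. For TNFRSF10D both lengths were 3535 bases. In CPM alone, LTBR (199) stood above TNFRSF10D (135) in the shMETTL3 libraries, so their order depends on the length used. The close order of TNFRSF10D and TNFRSF10A in vector libraries depends on it too. Genes on the opposite strand overlap 8.98% of the exonic bases of TNFRSF25, 7.65% of those of TNFRSF10A and 6.86% of those of LTBR, and without a known strand setting their reads cannot be told apart.

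The 18 untested genes had few or no counts. TNFSF8, TNFSF4, TNFSF13B and TNFRSF13C had at most 9, 8, 8 and 8 counts in any library, TNFRSF14 at most 4, and CD27, TNFRSF4 and TNFRSF17 at most 3. The genes TNF, LTA, LTB, TNFSF18, TNFRSF6B, TNFRSF8, TNFRSF13B and TNFRSF18 were at 0 in all 6 libraries. For several of these a 0 cannot be read as absence. Of the 93 other protein-coding genes that reach within 1 Mb of TNF in GRCh37, leaving out LTA and LTB, 67 (72.0%) were at 0 in every library, against 15.3% of all protein-coding genes, and 4 (4.3%) were tested, against 66.1%. Genes used by nearly every cell were also near 0 there, chosen after their values were seen: FLOT1 had no count, and CSNK2B at most 2 in any library. Farther from TNF on the same arm, TAPBP had none and RPS18, a ribosomal protein gene, had 1 count in all. The cause was not tested. TNFRSF6B, the soluble decoy receptor 3, lies entirely within exons of the readthrough gene RTEL1-TNFRSF6B, which had 13, 15 and 15 counts in vector and 9, 19 and 12 counts in shMETTL3 libraries.

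Mediators were listed as genes that carry or restrain the receptor signal inside the cell, with 3 genes of shedding (ADAM17, ADAM10 and RHBDF2). Inhibitors such as TNFAIP3 and CFLAR are therefore counted with the carriers. The list was chosen with earlier results of these data known. Of its 47 genes, 46 were tested, and 24 were higher and 12 lower (median log2 fold change 0.27). This is 78.3% called against 66.6% of all genes, 52.2% higher against 33.7%, and 26.1% lower against 32.9%. XIAP, TAB3 and IKBKG, counted among the higher, lie on chromosome X, where the median log2 fold change over 446 tested genes was 0.74. RIPK3 was listed at 0. The largest rises were those of TNFAIP3 (A20), a deubiquitinating inhibitor of NF-kB signalling, from 4.81 ± 0.3 to 52.1 ± 0.916 CPM (SD, n = 3, log2 fold change 3.44, edgeR adjusted p = 1.82e-22), TRAF1 (log2 fold change 2.61, edgeR adjusted p = 4.93e-15) and the NF-kB subunit RELB (log2 fold change 1.79, edgeR adjusted p = 3.47e-14). The largest falls were those of TRAF4 (log2 fold change -1.05, edgeR adjusted p = 2.25e-15), the adaptor TRADD (log2 fold change -0.71, edgeR adjusted p = 5.32e-06) and TRAF5 (log2 fold change -0.64, edgeR adjusted p = 8e-08).

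Of 10 adaptors, 3 rose and 5 fell (30% higher and 50% lower, against 33.7% and 32.9% of all genes). TRAF2 fell (log2 fold change -0.47, edgeR adjusted p = 1.89e-06), RIPK1 rose slightly (log2 fold change 0.26, edgeR adjusted p = 0.00313) though its libraries overlapped, and FADD had a log2 fold change of 0.20 (edgeR adjusted p = 0.187). Of the effectors, CASP8, the initiator caspase, fell by less than that shift of 0.17 between scalings (log2 fold change -0.15, edgeR adjusted p = 0.0477), and CFLAR, which encodes its inhibitor cFLIP, rose (log2 fold change 0.46, edgeR adjusted p = 7.12e-08). Of 10 ubiquitin system genes, 7 rose and 3 fell (70% higher and 30% lower, against 33.7% and 32.9% of all genes), and the 3 were RNF31, RBCK1 and SHARPIN, the subunits of the linear ubiquitin ligase. Of 8 NF-kB subunits and inhibitors, 5 rose and none fell by this test (62.5% called, all higher, against 66.6% of all genes called and 33.7% higher).

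Of 16 listed NF-kB target genes, 14 were tested and all 14 were called, 13 higher and 1 lower (median log2 fold change 1.34), against 66.6% of all genes called, 33.7% higher and 32.9% lower. This list too was chosen with earlier results of these data known, so these shares only describe it. CSF2 (at most 10 counts in any library) and IER3 (at most 4) were not tested. IER3 lies within 1 Mb of TNF, where most genes were at 0, so its count cannot be read as low expression. IL6, ICAM1, BCL2A1 and CCL20, 4 of the 13, passed the filter on low counts only through the shMETTL3 libraries, which favours a rise. Of the 10 that passed in both groups, 9 were higher and 1 was lower (median log2 fold change 1.06). The largest rises at an average log2 CPM of at least 2 were those of the chemokines CXCL8 (log2 fold change 3.63, edgeR adjusted p = 1.36e-25) and CCL2 (log2 fold change 2.52, edgeR adjusted p = 1.17e-19) and of SOD2, the mitochondrial superoxide dismutase (log2 fold change 1.99, edgeR adjusted p = 4.54e-22). LIF, a cytokine of the interleukin 6 family, fell (log2 fold change -0.78, edgeR adjusted p = 1.69e-12).

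**Figure D3:**
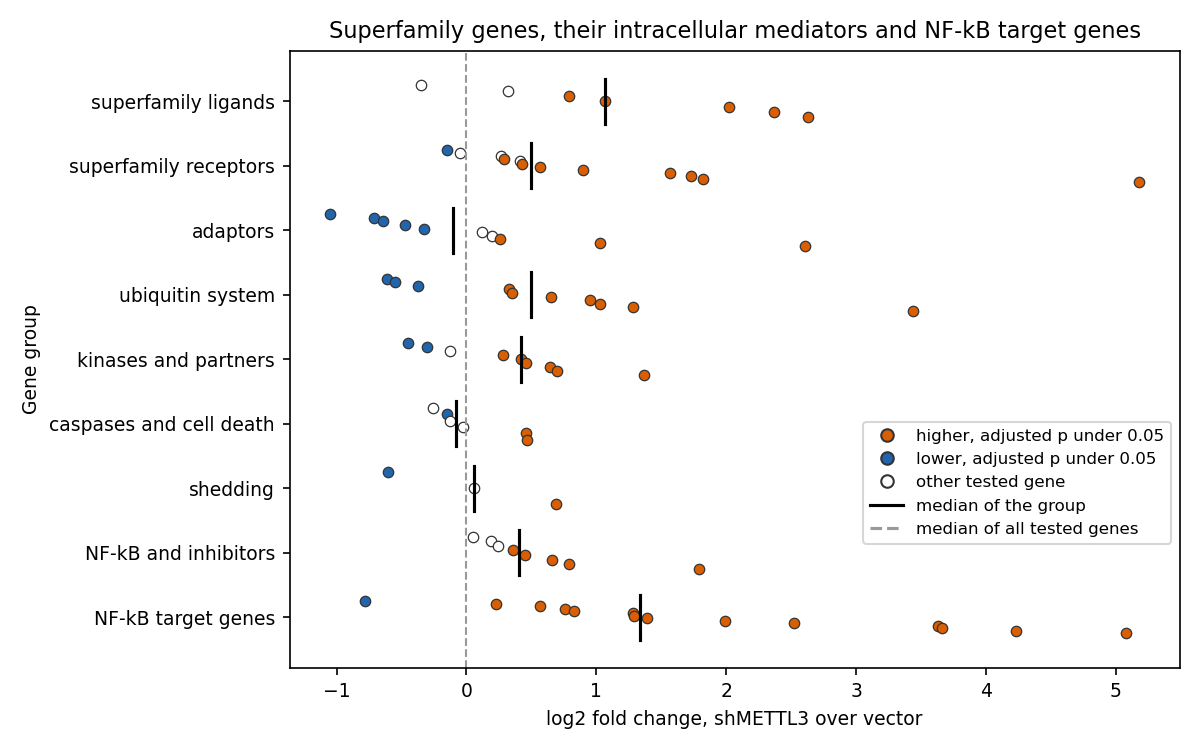
Log2 fold change of shMETTL3 over vector libraries (horizontal axis) for tested superfamily ligands and receptors, 6 groups of mediators and NF-kB target genes. Each point is a gene, filled where the adjusted p was under 0.05, black lines are group medians and the dashed line is the median of all tested genes. NF-kB target genes have a median of 1.34, or 1.06 without the 4 that passed the filter only through the shMETTL3 libraries, and adaptors one of -0.10.

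Of 7 superfamily genes whose names fall outside the symbols used, 5 were tested and 3 were called (20% higher and 40% lower, against 33.7% and 32.9% of all genes). FAS, a death domain receptor, fell (log2 fold change -0.41, edgeR adjusted p = 2.08e-05), as did RELT (log2 fold change -0.74, edgeR adjusted p = 0.000202), and EDA2R rose (log2 fold change 0.83, edgeR adjusted p = 3.07e-08). EDA2R also lies on chromosome X, and no gene of the 37 does. EDAR (log2 fold change 0.03, edgeR adjusted p = 0.768) and EDA (log2 fold change 0.34, edgeR adjusted p = 0.242) were not called, and FASLG and CD40LG were at 0.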

How the data were processed

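RNA of A549 cells was sequenced in 3 vector and 3 shMETTL3 libraries, grouped by sample title. The authors deposited raw counts per gene, aligned to hg19 with HISAT2 and counted with HTSeq. The submitters' processing notes name cutadapt 3.0, HISAT2 2.2.1, SAMtools 1.13 and HTSeq 0.13.5, and the study's methods name other versions of HISAT2 and HTSeq. The annotation and strand setting are not given in the sources used here, so reads of overlapping or antisense genes may be split or lost.

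The whole table was fitted in R 4.3.3 with edgeR 4.0.16 (TMM, filterByExpr, glmQLFit and glmQLFTest, group only, Benjamini-Hochberg over 15125 genes). Standard errors were the unshrunk coefficient divided by the root of F. Members and lists were chosen with earlier results of these data known. Superfamily genes with a mean of at least 1 CPM or an adjusted p under 0.05 were given by library, and for the mediators and targets the 3 largest rises and falls at an average log2 CPM of at least 2, plus TRADD, FADD, RIPK1, TRAF2, CASP8 and CFLAR. Alternatives were other scalings, filters and thresholds, DESeq2 1.42.0, limma-voom (limma 3.58.1), a replicate block and each library left out. Functions were tested on simulated data with far fewer changed genes than were called here, which does not test the choice of scaling. Positions, exons and transcripts came from GENCODE v44lift37 for GRCh37, promoters from RefSeq for GRCh38.p14, in which 25 of the 37 genes had an entry.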

Additional observations from a re-analysis of the deposited data

How the results depend on the processing

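Requiring also a log2 fold change of at least 1 left 8 superfamily genes, 8 mediators, 9 NF-kB target genes and 2668 of all genes. Without composition factors (library size alone), the median log2 fold change shifted by 0.17, which raised the share of higher calls from 50.6% to 65.8%, and LTBR (0.02) and TNFRSF10A (0.13) changed sign. It left 14 superfamily genes called, all 14 higher, since TNFSF9 was gained and LTBR lost. CD40 (log2 fold change 0.57) lost its call with DESeq2 at the same log2 fold change of 0.57 (adjusted p = 0.0815), and by edgeR at 0.58 without shMETTL3 replicate 2, at 0.50 without shMETTL3 replicate 3 and at 0.30 without vector replicate 1 (adjusted p = 0.0597, 0.0979 and 0.255). LTBR (-0.15) lost it at -0.13 without shMETTL3 replicate 1 (edgeR adjusted p = 0.0712). The cause was not tested. With each library left out in turn, 13 to 15 superfamily genes, 34 to 37 mediators, 13 to 14 NF-kB target genes and 9410 to 10072 of all genes were called. Same-numbered libraries shared only a number (correlations of their deviations 0.07, -0.02 and 0.04), and with a replicate block the same 14 superfamily genes and 10111 of all genes were called. Genes with under 10 counts per library are limited by depth.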
